A study of Danio rerio with 8 samples.

Results

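The genes described here are chemokines, chemokine receptors and inflammatory cytokines in the retina of albino zebrafish (Danio rerio) after a light lesion. They were chosen by name, as every probe set whose symbol in the array annotation was cxcr4a, cxcr4b, cxcl12a, cxcl12b, cxcl14, cxcl8a, ccl19a.1, il1b, tnfa or tnfb. This gave 7 probe sets of 15502, for 6 genes of the 10 named: cxcr4a, cxcr4b, cxcl12b, cxcl14 and ccl19a.1 with 1 probe set each, and cxcl12a with 2. The cytokine genes il1b, tnfa and tnfb and the neutrophil chemokine gene cxcl8a had no probe set under these symbols and were not analysed here, so the genes measured are chemokine and CXCR4 receptor genes only.

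The purpose stated for the study was to find genes needed for photoreceptor regeneration. All fish were albino and were first adapted to darkness. The 4 light lesion arrays come from whole retinas of fish then kept for 72 h in bright constant light, which destroys photoreceptors, and the 4 control arrays from fish returned to ordinary lighting. The light itself and the lesion therefore cannot be told apart, and the labels give no age, sex or pooling of the fish, nor whether replicates were separate fish, so the spread behind each p-value may be technical.

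Chemokines are small secreted proteins that guide migrating cells through receptors coupled to G proteins. Cxcl12 acts through Cxcr4, and zebrafish keep a pair of copies of each gene. In zebrafish embryos Cxcl12a guides cells that carry Cxcr4b, among them primordial germ cells and the lateral line primordium, and cxcr4b is also a gene of retinal ganglion cells and of leukocytes. Interleukin 1 and tumour necrosis factor, secreted by activated macrophages and microglia, signal to NF-kB and induce other chemokines. In the damaged zebrafish retina microglia gather at dying photoreceptors while Müller glia divide to replace them.

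Levels are log2 RMA values, with mean ± SD over n = 4 arrays per group. The deposited values hold no detection call. A background level of 7.08 was therefore taken from 27 control probe sets for bacterial genes, as the highest of their group means. The whole-retina label was borne out by rod and cone genes, with all 6 rod and 11 cone markers measured above background. These markers moved with the groups: 5 rod markers fell and 1 rose (mean level 12.82 in controls and 10.97 after the light lesion), and 8 cone markers fell and 1 rose (14.07 and 13.57). Of 9 Müller glia markers 3 rose, among them fabp7a (2.23) and gfap (0.93), and 3 fell, among them cahz (-0.64) and aqp1a.1 (-0.41). The part of these changes in the results below was not tested. Array medians ran from 7.62 to 7.69, and rank correlations between arrays were 0.988 to 0.997 within a group and 0.962 to 0.974 between groups. RNA quality or labelling can shift the GAPDH controls' 3′ minus 5′ difference, which was 0.045 ± 0.022 on control and 0.213 ± 0.056 on light lesion arrays (two-sided exact permutation p = 0.0286, the lowest possible with 4 arrays a group). The same difference for the acta1 controls was -1.389 ± 0.109 on control and -1.535 ± 0.149 on light lesion arrays (two-sided exact permutation p = 0.2). The part of RNA quality or labelling was likewise not tested. The number of arrays limits the precision of every value.

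Of the 6 genes, the receptor gene cxcr4b rose after the light lesion and the chemokine genes cxcl14 and ccl19a.1 fell. The second receptor gene cxcr4a and the ligand genes cxcl12a and cxcl12b did not pass the test. Thus 1 gene was called higher and 2 lower with limma at an adjusted p of 0.05, against 24.4% of the 8793 genes higher and 20.1% lower. By probe set 3 of 7 were called (42.9%), beside 40.2% of all 15502, and on 4 of 7 the groups did not overlap, beside 40.0% of all. The share of members that changed was thus near that of the whole array. The median difference of the 6 genes was 0.01, and that of all genes was -0.03.

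**Figure D1:**
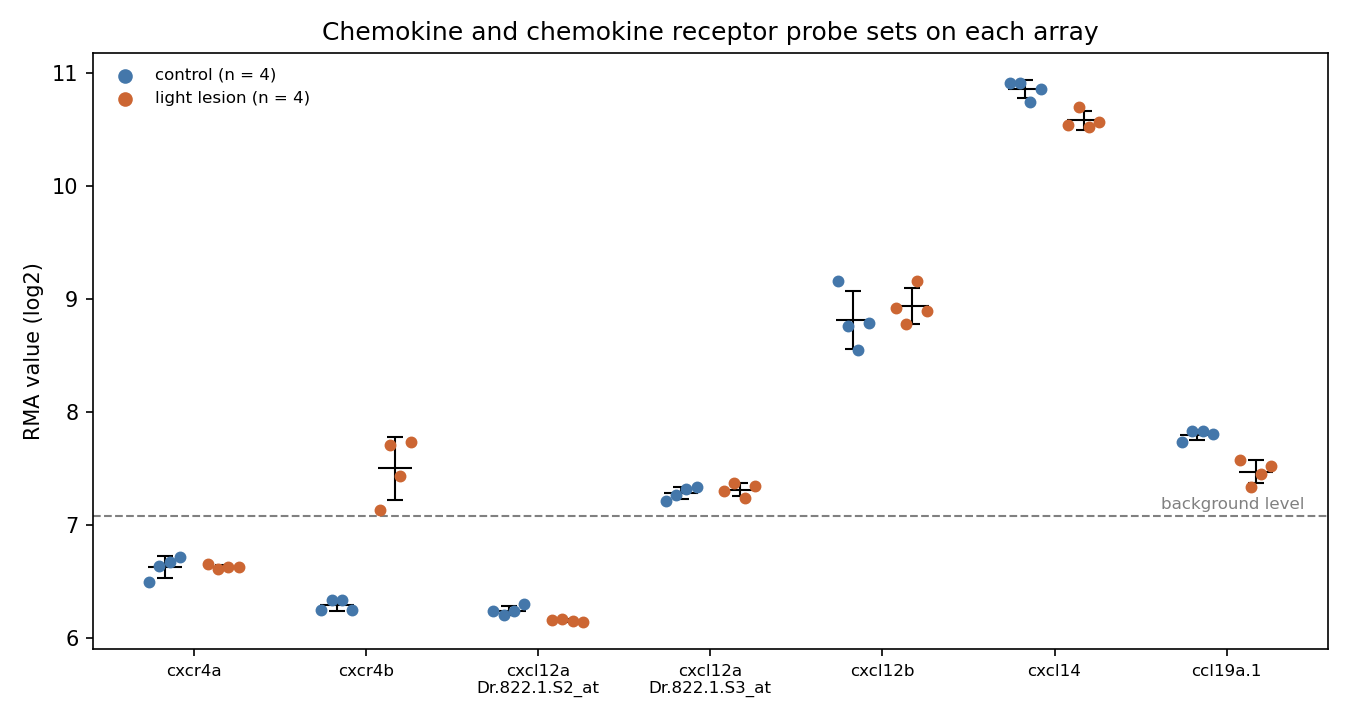
RMA values (log2) of the 7 probe sets on each of the 8 arrays, 4 control (blue) and 4 light lesion (orange), with mean and SD as black bars and the background level of 7.08 dashed. All 4 light lesion arrays of cxcr4b lie above its 4 controls, those of cxcl14 and ccl19a.1 lie below theirs, and cxcr4a stays under the dashed line on all 8 arrays.

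The receptor gene cxcr4b (NCBI gene 114447) measured 6.24, 6.33, 6.33 and 6.25 on control replicates 1 to 4 and 7.13, 7.71, 7.43 and 7.73 on light lesion replicates 1 to 4. The groups were separated by 0.80, with the 4 controls within 0.09 of each other and light lesion replicate 1 the lowest of its group. The mean rose from 6.29 ± 0.05 to 7.50 ± 0.28, a difference of 1.21 (SE 0.12, 95% interval 0.94 to 1.48, limma adjusted p = 4.3e-05). Controls lay under the background level on all 4 arrays, so the fold is a bound. The light lesion mean lay only 0.42 above that level. Against the highest background probe set of each control array, which averaged 7.12, the light lesion mean was at least 1.31-fold higher.

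Its copy cxcr4a (NCBI gene 140747) measured 6.49, 6.63, 6.67 and 6.72 on the controls and 6.65, 6.61, 6.63 and 6.62 on the light lesion arrays. Every array lay under background and the light lesion arrays fell inside the range of the controls. The difference was -0.002 (SE 0.06, 95% interval -0.13 to 0.12, limma adjusted p = 0.983), and its sign turned under median centring, a second quantile normalization, a background covariate and the omission of some single arrays. A change of cxcr4a below background is not measured by this probe set.

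The change of the receptor copies was also compared on each array. The value of cxcr4b minus that of cxcr4a lay between -0.47 and -0.25 on the 4 control arrays and between 0.48 and 1.11 on the 4 light lesion arrays. The shift was 1.21 (two-sided exact permutation p = 0.0286, the lowest the design allows, adjusted p = 0.0381 over the 4 pairs compared). Since cxcr4a lay under background on all 8 arrays and cxcr4b on the 4 controls, the shift is one of signal and does not show how far the RNA of the copies differed in its change.

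The ligand gene cxcl12a (NCBI gene 352944) had a probe set of higher signal, its name ending in S3_at, and a dim one, ending in S2_at. The first measured 7.21, 7.26, 7.32 and 7.34 on controls and 7.30, 7.37, 7.23 and 7.35 on light lesion arrays, just above background. Its groups overlapped, at 7.28 ± 0.06 against 7.31 ± 0.06 (difference 0.03, SE 0.05, 95% interval -0.08 to 0.14, limma adjusted p = 0.663). The dim probe set measured 6.23, 6.20, 6.23 and 6.30 on controls and 6.16, 6.16, 6.15 and 6.14 on light lesion arrays. These groups did not overlap, by a gap of 0.03, but all 8 values lay under background and the difference of -0.09 did not pass (SE 0.04, adjusted p = 0.126). The 2 probe sets of cxcl12a thus differed in sign, and neither was called.

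Its copy cxcl12b (NCBI gene 799354) was well above background. It measured 9.16, 8.77, 8.55 and 8.79 on controls and 8.92, 8.78, 9.16 and 8.89 on light lesion arrays. The groups overlapped widely, control replicate 1 being as high as the highest light lesion array. The means were 8.82 ± 0.26 and 8.94 ± 0.16, with a difference of 0.12 (SE 0.13, 95% interval -0.16 to 0.41, limma adjusted p = 0.481). Of the 7 probe sets this one spread most among controls, over 0.62. With 1 array left out the difference ran from 0.033, without control replicate 3, to 0.238, without control replicate 1, and it was 0.02 with a background covariate. The interval leaves room for a rise of up to 0.41 or a fall of up to -0.16.

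The ligand genes were set against cxcr4b in the same way. The value of cxcl12a minus that of cxcr4b was 0.99 ± 0.07 on control and -0.19 ± 0.25 on light lesion arrays, a shift of -1.18 (exact permutation p = 0.0286, adjusted p = 0.0381). For cxcl12b minus cxcr4b it went from 2.53 ± 0.29 to 1.44 ± 0.38, a shift of -1.09 (exact permutation p = 0.0286, adjusted p = 0.0381). The ligand copies did not differ detectably in their change, with a shift of cxcl12a minus cxcl12b of -0.09 (exact permutation p = 0.657). All 3 comparisons with cxcr4b share its values, with controls under background, and the ligand genes themselves moved by 0.03 and 0.12, so these shifts restate the rise of cxcr4b in signal. The pair tnfa and tnfb was not compared.

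**Figure D2:**
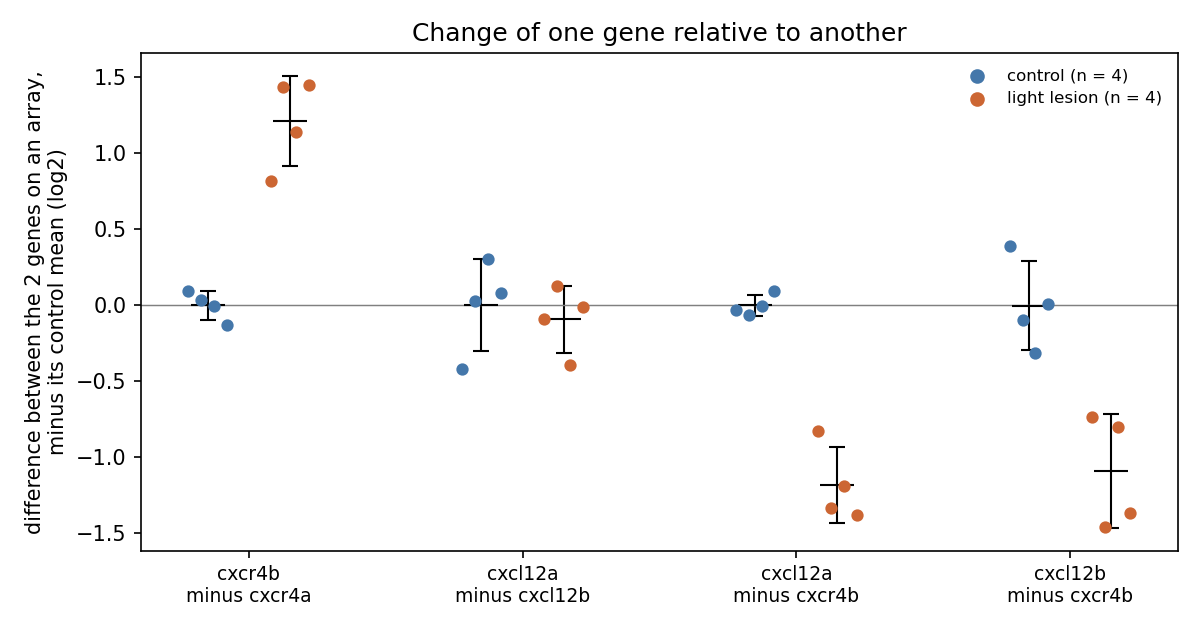
Difference between 2 genes on each array, less the control mean of that difference (log2), for the 4 pairs of receptor and ligand genes, with controls in blue, light lesion arrays in orange and mean and SD in black. The 3 pairs that hold cxcr4b separate the groups, by 1.21, -1.18 and -1.09, and cxcl12a against cxcl12b does not.

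The chemokine gene cxcl14 (NCBI gene 58151) had the highest signal of the 6 genes, above 91.1% of all probe sets in controls. Cxcl14 is made without inflammation in many mammalian tissues. It measured 10.92, 10.92, 10.75 and 10.86 on controls and 10.54, 10.70, 10.52 and 10.57 on light lesion arrays. The groups were separated by 0.04, between control replicate 3 and light lesion replicate 2. The mean fell from 10.86 ± 0.08 to 10.58 ± 0.08, a difference of -0.28 (SE 0.06, 95% interval -0.41 to -0.14, limma adjusted p = 0.00482), or -17.4%.

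The gene ccl19a.1 (NCBI gene 794891) encodes a fish relative of CCL19, which in mammals draws lymphocytes and dendritic cells through the receptor CCR7. It measured 7.74, 7.83, 7.83 and 7.80 on controls and 7.58, 7.34, 7.45 and 7.52 on light lesion arrays, a gap of 0.16 between the groups. The mean fell from 7.80 ± 0.05 to 7.47 ± 0.10, a difference of -0.33 (SE 0.06, 95% interval -0.46 to -0.19, limma adjusted p = 0.00172), or -20.4%. Of all probe sets, 27.0% changed by more than ccl19a.1 and 31.6% by more than cxcl14. The median absolute difference of all genes was 0.17, smaller than both falls. The light lesion mean of ccl19a.1 lay only 0.39 above background. In whole-retina RNA fewer cells of a type and less RNA per cell cannot be told apart.

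**Figure D3:**
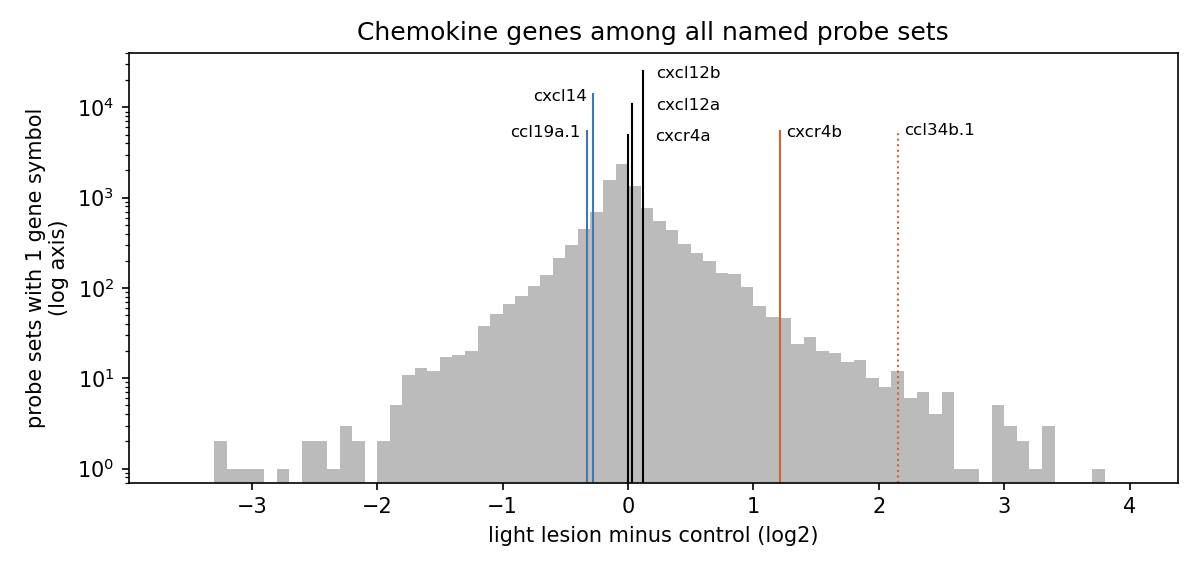
Number of probe sets with 1 gene symbol (log axis) by light lesion minus control difference (log2), in bins over all such probe sets, with lines at the 6 genes (the probe set of higher signal for cxcl12a) and a dotted line at ccl34b.1. Called genes are orange (higher) or blue (lower). The line of cxcr4b, at a fitted difference of 1.21 from controls under background, lies in the right tail. Those of ccl19a.1 and cxcl14, at -0.33 and -0.28, lie within the main body, as 27.0% and 31.6% of all probe sets changed by more.

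Other genes of the same families were read from lists of ligands, receptors, cytokines and their signalling. Only 25 of the 185 chemokine, cytokine and receptor genes listed were measured, and 12 of those 25 lay at background. Of the 25 genes 4 rose and 3 fell (28.0%, beside 44.5% of all genes). Among the 5 other chemokine ligands 1 rose, 2 fell and 2 did not pass (60.0% called).

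The ligand gene that rose was ccl34b.1, which in adult zebrafish marks a population of microglia. It measured 10.67, 10.57, 10.38 and 10.45 on controls and 12.56, 12.71, 12.69 and 12.71 on light lesion arrays. The difference was 2.15 (4.45-fold, SE 0.07, limma adjusted p = 1e-07), with both groups well above background. Its size is not ranked against cxcr4b, whose fold is only a bound. The ligand genes ccl44 and ccl38a.5 fell by 0.27 (adjusted p = 0.00759) and 0.22 (adjusted p = 0.0296), the latter with overlapping groups. The call of ccl38a.5 was lost when control replicate 2 or 4 or light lesion replicate 2 or 3 was left out, with adjusted p = 0.0765 to 0.0856.

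The ligand gene ccl25b, whose mammalian relative guides developing T cells, measured 7.17, 7.25, 7.19 and 7.26 on controls and 7.03, 8.21, 7.70 and 7.94 on light lesion arrays. Light lesion replicate 1 lay below every control and the other 3 above every control. The difference of 0.51 did not pass (SE 0.21, limma adjusted p = 0.0807). Without light lesion replicate 1 it was 0.74 and passed (adjusted p = 0.000498). It did not pass on leaving out any other single array (limma adjusted p up to 0.192), and was 0.34 without light lesion replicate 2. Light lesion replicate 1 was also the lowest of its group for cxcr4b and the highest for ccl19a.1.

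The other chemokine receptors measured were cxcr3.3 and ackr3b. Ackr3b belongs to the receptors that take up and clear Cxcl12. Both probe sets lay under background in both groups, where 14.5% of such probe sets were called. The value of ackr3b went from 6.41 ± 0.03 to 6.20 ± 0.07, a fall of -0.21 (adjusted p = 0.00632). For cxcr3.3 it went from 6.40 ± 0.09 to 6.60 ± 0.07, 0.20 higher (adjusted p = 0.0263), a call lost on leaving out any of 6 of the 8 arrays (adjusted p up to 0.0710). No fold is given for either.

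Among 8 other cytokine genes 1 rose and none fell (12.5% called, beside 44.5% of all genes). It was mif, the macrophage migration inhibitory factor, from 12.09 ± 0.06 to 12.35 ± 0.09 (difference 0.26, SE 0.06, limma adjusted p = 0.00557). The interleukin 12 subunit gene il12bb was at 0.18 (adjusted p = 0.112) and the death ligand gene tnfsf10 at -0.16 (adjusted p = 0.0717), neither called. Of 10 cytokine receptor genes 1 rose and 9 did not pass, and 7 of the 10 lay at background. The one that rose was csf1ra, the receptor through which Csf1 and Il34 maintain microglia, from 7.03 ± 0.03 to 7.26 ± 0.05 (difference 0.23, SE 0.05, adjusted p = 0.0029). Its control mean lay just under background. The tumour necrosis factor receptor gene tnfrsf1a, at -0.03 (adjusted p = 0.734), and the interferon and interleukin 10 family receptor genes crfb1 and crfb4, at 0.01 and -0.02, lay at background in both groups.

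**Figure D4:**
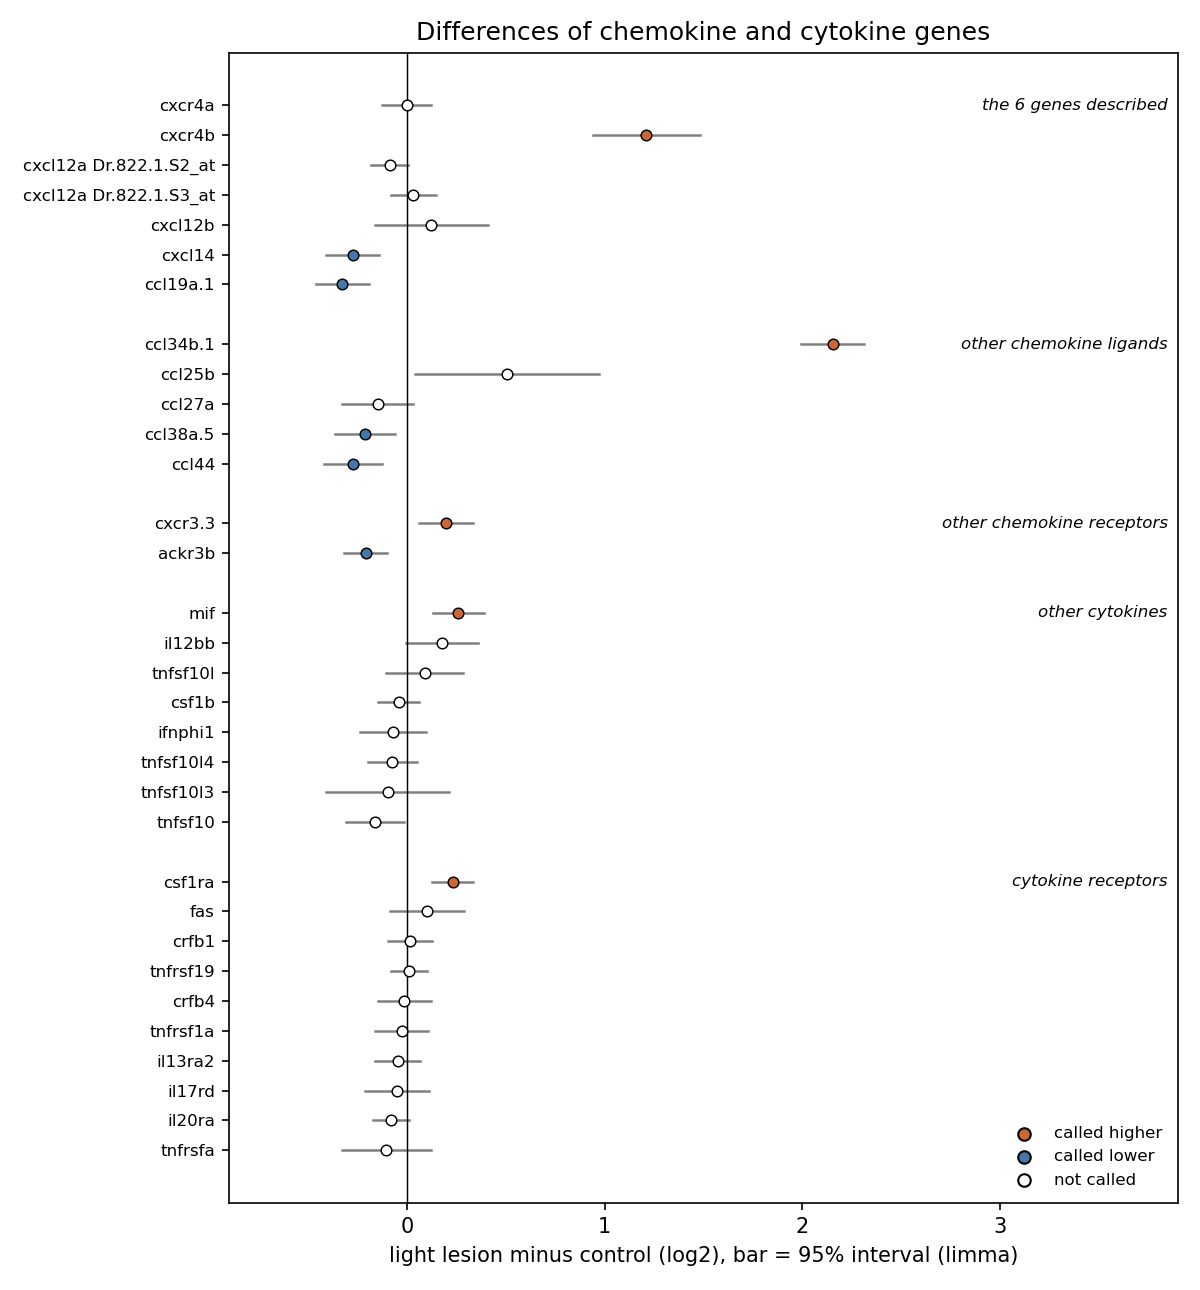
Light lesion minus control difference (log2) of the 7 probe sets and of the 25 other chemokine, cytokine and receptor genes measured, with 95% intervals from limma as bars and calls as filled points, orange for higher and blue for lower. The rise of ccl34b.1 (2.15) stands apart. That of cxcr4b (1.21) starts from controls under background, so its size is not ranked. The other called differences lie between -0.33 and 0.26.

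Genes of NF-kB and interleukin 1 receptor signalling, a list that also holds inflammasome genes, were better covered, with 28 of 50 measured. Of these 9 rose, 5 fell and 14 did not pass (50.0% called, beside 44.5% of all genes), with a median difference of 0.03. In this list 6 of the 28 genes lay at background, and 11 of the 22 above it were called. The 5 that rose most were litaf (0.89, adjusted p = 1.03e-04), a membrane protein of late endosomes, the tumour necrosis factor receptor adaptor gene tradd (0.68, adjusted p = 2.31e-04), the inflammasome adaptor gene pycard (0.63, adjusted p = 0.00137), the NF-kB subunit gene nfkb2 (0.52, adjusted p = 5.42e-05) and the NF-kB inhibitor gene nfkbiaa (0.36, adjusted p = 0.00196). Controls of pycard lay at background, at 7.01.

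The 5 members that fell have different roles. The IkB kinase gene chuk fell by 0.45 (adjusted p = 0.00115) and ikbkg, which holds the kinase complex together, by 0.38 (adjusted p = 0.00747). The upstream kinase gene map3k7 fell by 0.42 (adjusted p = 0.00516), to 6.97, under background. The Toll pathway inhibitor gene tollip fell by 0.27 (adjusted p = 0.0114). The call of tab1, whose product activates the Map3k7 kinase, was weak (-0.15, adjusted p = 0.0447). It was lost on leaving out any of 6 of the 8 arrays (adjusted p up to 0.120), and its other probe set stood at -0.03 (adjusted p = 0.753).

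Markers of leukocytes, in which cxcr4b is known, rose with it. Of 9 general leukocyte markers 7 rose and none fell (77.8% called, beside 44.5% of all genes), led by laptm5 (1.97) and arpc1b (1.61), and their mean level ran from 7.31 to 7.37 in controls and from 8.04 to 8.38 in light lesion arrays. Of 10 microglia and macrophage markers 9 rose (90.0%), led by lgals9l1 (2.53) and grna (2.20), with mean levels of 8.29 to 8.36 and 9.16 to 9.45. The control mean of grna, at 7.07, lay just under background. The markers mrc1a, cd44a and ncf1 lay at background.

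Of 6 neutrophil markers 3 rose, among them mmp9 (3.74), which other cells also make, and lyz (0.63). The control mean of mmp9, at 7.06, lay just under background. The defining neutrophil peroxidase gene mpx was at -0.19 (adjusted p = 0.33). Of 4 T, NK and B cell markers none rose and 2 fell, with 3 at background. Both lists had 50.0% of their markers called, near the 44.5% of all genes. Of 8 ganglion cell markers 3 rose and 5 fell, so all were called, and their mean level ran from 9.03 to 9.11 in controls and from 8.88 to 8.97 after the light lesion. Those that rose included atoh7 (1.24) and gap43 (1.21), genes of newly formed neurons and of growing axons. The control mean of atoh7, at 6.82, lay under background. The markers that fell included inab (-1.24) and chrnb3a (-0.79). Markers of tissues outside the neural retina also moved with the groups. Of 12 markers of corneal and skin epithelium 6 rose, 1 fell and 5 did not pass (58.3% called), with 4 at background. The marker that fell was tp63 (-0.19, limma adjusted p = 0.00885), and those that did not pass included epcam (0.26) and krt5 (0.04). Mean levels of the 12 markers were 7.26 to 7.36 in controls and 7.88 to 8.27 after the light lesion. Of 6 markers of pigment epithelium and pigment cells 4 rose and none fell (66.7%), with mean levels of 9.48 to 9.52 and 10.61 to 10.84. Of 8 blood markers none rose and 3 fell (37.5%), with 5 of the 8 at background and only 1 called above it. None of the 3 endothelial markers measured passed, all 3 at background. The part of these cells in the rise of cxcr4b was not tested.

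Last, the genes whose profile over the 8 arrays lay nearest to that of cxcr4b were found. Likeness was the root mean square of the difference between profiles, each less its own control mean, and the genes are listed from the nearest. They were her4.2, a gene of the Notch target family, the splicing protein gene snrpb, the translation initiation factor gene eif3ha, the tetraspanin gene tspan37 and the small nucleolar RNA protein gene nhp2, at 0.0902 for the nearest and 0.116 for the last. Their differences between groups ran from 1.14 for snrpb to 1.27 for eif3ha, and for all 5 light lesion replicate 1 was the lowest of its group. Both traits are those of cxcr4b itself and follow from how the genes were chosen. The controls of cxcr4b lay under background, so the likeness is one of signal and not of the size of change in RNA. Control means of snrpb, eif3ha, tspan37 and nhp2 lay above background, at 10.73, 9.57, 7.33 and 9.73. The name of the her4.2 probe set ends in x_at, the array maker's mark for probes that may also bind other transcripts, and its controls lay at background.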

How the data were processed

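Affymetrix zebrafish arrays measured biotin-labelled whole-retina RNA. The deposited log2 values, 1 for each array and probe set, were made with RMA (background correction, quantile normalization and probe summary in its usual form), per the submitters' processing notes. Its version and exact steps are not stated there, and base 2 was inferred because the values span 5.47 to 14.89. Groups came from the sample titles. A gene's name came from the array annotation where a probe set had 1 symbol (10795 of 15502 probe sets, after 115 AFFX controls were left out). Another 135 had several symbols and 4572 none. The gene identifiers of 10711 probe sets with 1 symbol were found in the RefSeq gene table, through which 1 symbol was updated. Where a gene had several probe sets, that of highest mean was used (8793 genes).

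Each probe set was tested for a difference between the groups with limma 3.58.1 under R 4.3.3, by two-sided moderated tests without covariates or a filter. The p-values were adjusted by Benjamini-Hochberg over all 15502 probe sets, and 0.05 was the threshold. The steps were tested on simulated data in which a small share of probe sets was raised and none lowered, unlike these data. Differences between pairs of genes were tested with exact permutation tests over the 70 assignments of the arrays. The members and lists were chosen with earlier results of these data known. The genes named were every member, up to 5 higher and 5 lower genes of each list, 2 genes from each of the leukocyte and microglia lists, and the 5 genes nearest in profile to the member of largest change. The genes ccl25b, il12bb, tnfsf10, mpx, lyz, mmp9, atoh7, gap43, mrc1a, cd44a, ncf1, fabp7a, gfap and tp63 were named after their values were seen. So were the receptors listed at background, the epithelium markers krt5 and epcam, and the Müller glia and ganglion cell markers named as having fallen.

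The alternatives tried were array weights, omission of each array, a filter on dim probe sets, median centring, a second quantile normalization, a block for the replicate number, a robust prior with a trend, the mean of a gene's probe sets, a threshold of 0.01 and, added after the data were seen, a background covariate. The replicate numbers showed no sign of pairing: deviations of same-numbered arrays from their group means correlated at -0.21, 0.28, -0.24 and 0.17 over all probe sets. Those of other-numbered arrays correlated at -0.34 to 0.33. With so few arrays this does not exclude a pairing. Sequences and genome positions are not given, because no sequence table was used here and the files name no genome build.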

Additional observations from a re-analysis of the deposited data

Results flagged for a closer look

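The chemokine gene ccl34b.1 had 1 light lesion array, replicate 1, far from the rest of its group, at 12.56 beside 12.69 to 12.71, still above all controls. The receptor gene csf1ra had 1 control array, replicate 1, at 6.99 beside 7.05 to 7.05, all under background. The interleukin 12 subunit gene il12bb had 1 control array, replicate 2, at 8.56 beside 8.67 to 8.68. A sample this far from 3 others is found in about 1 in 20 groups by chance, and 3 were found in the 74 groups of arrays examined.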

How the results depend on the processing

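The calls of cxcr4b, cxcl14 and ccl19a.1 kept their direction and stayed past the threshold under every alternative that could test them. With 1 array left out, the difference of cxcr4b ran from 1.13 to 1.33, that of cxcl14 from -0.32 to -0.26 and that of ccl19a.1 from -0.36 to -0.28. Leaving out dim probe sets removed cxcr4b, whose mean over the 8 arrays is under background, so 0 of the genes were then called higher. The uncalled value of cxcr4a turned to 0.027 with a second quantile normalization, to 0.005 with median centring and to 0.031 with a background covariate, and ran from -0.048 to 0.027 with 1 array left out. The shift of cxcl12a against cxcl12b ran from -0.231 to 0.009 with 1 array left out. The cause of these turns was not tested. With the 10th percentile as background (6.16) all 7 control means lay above it, in place of 4.

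Of the lists, other chemokine ligands had 2 called higher with array weights and 1 lower with the background covariate, and from 1 to 2 in each direction with 1 array left out. Other chemokine receptors had 0 higher with the replicate block, 0 in either direction without dim probe sets and 0 to 1 higher with 1 array left out. Other cytokines had 2 higher and 1 lower with array weights and 1 to 2 higher with 1 array left out. The replicate block cost cxcr3.3 (adjusted p = 0.0801) and tab1 (adjusted p = 0.106) their calls, gave 2812 probe sets higher and 2826 lower in place of 3029 and 3203, and changed no call of the 6 genes. The median difference of all probe sets, -0.042, became -0.035 after median centring and -0.028 after the second quantile normalization. The genes ccl25b, il12bb and tnfsf10 passed with array weights (adjusted p = 0.0147, 0.0351 and 0.0219), and il12bb without light lesion replicate 2 (adjusted p = 0.0493). Signals under background limit what can be said of cxcr4a, of the dim cxcl12a probe set and of most cytokine receptors.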
